A study of Mus musculus with 8 samples.

Results

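The expression of 9 complement genes of the 24346 genes in the table was examined in mouse bone marrow multipotent mesenchymal stem/stromal cells (MSCs). The genes were taken by symbol: *C1qa*, *C1qb*, *C1qc*, *C1ra*, *C3*, *C4b*, *Cfb*, *Cfd* and *Serping1*. The first 3, the C1q genes, are known as macrophage genes, and the other 6 are referred to here as the stromal complement genes. RNA was measured in 8 libraries at passage 4, with WT and *Dnmt3l* KO MSCs each taken undifferentiated and differentiating, and 2 libraries in each of these 4 groups. The WT cells came from *Dnmt3l*+/+ littermates and the KO cells from mice homozygous for the *Dnmt3l* tmEnls allele, so that the gene was disrupted in all cells of the animal and not in MSCs alone. All mice were females of 8 to 16 weeks in a C57BL/6 background. MSCs of 3 mice were mixed per genotype in an experiment, and cells carrying CD11b or CD45, which mark macrophages and other blood cells, had been removed with magnetic beads. Undifferentiated MSCs of both genotypes were kept with 20% FBS. Differentiating MSCs of both genotypes had 3 days of osteogenic induction with 0.1 µM dexamethasone, 10 mM β-glycerophosphate and 50 µM ascorbic acid 2-phosphate at 10% FBS, so that the effects of the glucocorticoid dexamethasone, of the other additions and of the lower serum cannot be told apart. The sources do not state if a group's 2 libraries had separate mixes of mice behind them, and p-values then measure only the spread between these libraries, which may be technical.

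Complement is a set of plasma proteins that tag microbes, dead cells and immune complexes for clearance. In the classical pathway, C1q binds the target and works in a complex with the proteases C1r and C1s, which cut C4 and C2. The alternative pathway uses factor B and factor D to cut more C3, the protein on which all routes converge, and the C1 inhibitor, encoded by *Serping1*, shuts off C1r and C1s. The liver makes most of the circulating components, whereas C1q comes mainly from macrophages and dendritic cells, and fibroblasts and other stromal cells can make C1r, C1s, C3, factor B and C1 inhibitor locally.

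In the mm10 genome with the GENCODE annotation, *C1qa*, *C1qc* and *C1qb* lay side by side on the minus strand of chromosome 4, from the start of *C1qb* at 136880129 to the end of *C1qa* at 136898803. *C1ra* lay on the plus strand of chromosome 6 (124512405 to 124523443), 6.90 kb from *C1s1*. *C4b* (34728380 to 34743882) and *Cfb* (34856374 to 34862518) lay on the minus strand of chromosome 17, 112 kb apart, and *Cfb* ended 0.086 kb from *C2*. *C3* was on the minus strand of the same chromosome (57203970 to 57228136). *Cfd* was on the plus strand of chromosome 10 (79890853 to 79892655) and *Serping1* on the minus strand of chromosome 2 (84765387 to 84775444). Windows of 50 bases, the length of the reads, were compared between transcripts. *C1ra* shared 48.0% of its windows with *C1rb*, *C4b* shared 35.2% with *C4a*, and *Cfb* shared 81.4% with the overlapping transcript *Gm20547*, so that the levels of these 3 genes are uncertain to that extent. *C1rb* was at most 1.38 RPKM and *C4a* at most 0.160 RPKM in any library. The other 6 genes shared 0 windows with another gene.

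RefSeq promoters of 300 bases, 250 before and 50 after the gene start, were matched for 5 of the 9 genes (*C1qb*, *C1qc*, *C1ra*, *C3* and *Cfd*). They were searched on both strands for the letters of 6 motifs of factors known for myeloid genes, acute-phase genes or glucocorticoid response: PU.1 (GAGGAAG), C/EBP (TTGCNNAA), STAT (TTCNNNGAA), IRF (GAAANNGAA), NF-kB (GGGANTTTC) and the glucocorticoid receptor half-site (AGAACA). Motif positions are counted from the RefSeq gene start. GENCODE places the starts of *C1ra* (124512405) and *C1qc* (136893065) further upstream, so that most of these 2 windows lay within the gene as GENCODE draws it. The promoters are shown for 2 C1q genes and for 2 stromal genes because they hold matches of different kinds. Capitals mark the matches, and the coordinates are of GRCm38.p6, with each sequence written along the strand of its gene.
*C1qb* (chr4:136886151-136886450, minus strand): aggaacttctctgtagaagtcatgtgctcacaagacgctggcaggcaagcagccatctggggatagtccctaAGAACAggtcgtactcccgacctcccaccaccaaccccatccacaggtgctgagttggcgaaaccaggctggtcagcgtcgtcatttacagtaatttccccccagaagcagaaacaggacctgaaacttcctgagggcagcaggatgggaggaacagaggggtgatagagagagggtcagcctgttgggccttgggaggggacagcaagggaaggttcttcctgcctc
*C1qc* (chr4:136892865-136893164, minus strand): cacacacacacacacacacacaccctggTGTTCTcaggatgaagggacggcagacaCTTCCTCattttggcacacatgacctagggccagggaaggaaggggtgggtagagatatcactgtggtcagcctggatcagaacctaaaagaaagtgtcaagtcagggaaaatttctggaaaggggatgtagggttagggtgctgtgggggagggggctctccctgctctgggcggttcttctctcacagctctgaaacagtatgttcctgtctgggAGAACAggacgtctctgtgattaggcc
*C1ra* (chr6:124512371-124512670, plus strand): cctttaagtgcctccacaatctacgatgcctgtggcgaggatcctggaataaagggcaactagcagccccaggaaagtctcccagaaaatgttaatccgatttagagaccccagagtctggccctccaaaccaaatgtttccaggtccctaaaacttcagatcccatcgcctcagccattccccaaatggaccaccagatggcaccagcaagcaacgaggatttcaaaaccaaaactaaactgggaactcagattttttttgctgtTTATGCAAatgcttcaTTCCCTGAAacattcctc
*C3* (chr17:57228087-57228386, minus strand): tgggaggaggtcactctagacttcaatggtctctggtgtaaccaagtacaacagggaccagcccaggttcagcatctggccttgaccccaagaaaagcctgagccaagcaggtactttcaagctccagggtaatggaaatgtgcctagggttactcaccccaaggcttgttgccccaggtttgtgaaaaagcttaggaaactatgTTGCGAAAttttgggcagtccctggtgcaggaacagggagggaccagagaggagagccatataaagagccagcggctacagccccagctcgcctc

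The promoter of *C1qc* held the PU.1 letters at -194, which 13.6% of the 32851 promoters searched also held, and the glucocorticoid receptor half-site at -222 and 24. That half-site was in *C1qb* at -178, and 19.0% of all promoters held it. The C/EBP letters were in *C3* at -45 and in *C1ra* at 17, against 10.8% of all promoters. The STAT letters were in *C1ra* at 33, against 8.30%. The IRF letters (8.56% of all promoters) and the NF-kB letters (1.11%) were in 0 of the 5, and the promoter of *Cfd* held none of the 6 motifs. These are matches of letters and not measured binding.

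Levels are given as RPKM, the read density that the authors computed from the reads of a gene, its transcript length and the mapped reads of the library, and may be compared between genes because they are per length. *Dnmt3l* itself was between 0.830 and 1.56 RPKM in the 4 WT libraries and was listed at 0 in the 4 KO libraries, which matches the labels. The paper mapped the *Dnmt3l* reads of WT MSCs to the later exons only, and detected no canonical DNMT3L protein in MSCs. RPKM gives no depth directly, but the low values of genes moved in steps of whole reads, from which the libraries were of like depth, within 1.07 times the shallowest, apart from WT differentiating library 1 at 1.39 times. Stromal markers (10 genes, among them *Pdgfra*, *Thy1*, *Col3a1* and *Ly6a*) summed to between 2116 and 4723 RPKM per library, whereas *Cd3e*, *Ms4a1*, *S100a9* and *Hba-a1*, markers of T cells, B cells, neutrophils and red cells, were at 0 in all 8. Other markers of blood cells were detected: *Cd79a* of B cells was above 0 in all 8 (at most 0.233 RPKM), *Mpo* and *Nkg7* were at most 0.0796 and 0.192 RPKM, and *S100a8* of neutrophils reached 2.43 RPKM and rose with induction in both genotypes (log2 changes 2.77 in WT and 3.54 in KO MSCs, limma adjusted p = 0.032 and 0.011). The endothelial markers (7 genes) summed to at most 4.88 RPKM. Changes were tested with limma on log2(RPKM + 0.1) over the 15342 genes that averaged 0.1 RPKM or more, with Benjamini-Hochberg adjustment over all of them. Genes with an adjusted p under 0.05 and a change of more than 2-fold (an absolute log2 change above 1) are called differentially expressed genes (DEGs). Where counts at an unadjusted p under 0.05 alone are given, the share of all genes at that limit was not counted. It is far above the share of DEGs. With no fold limit, an adjusted p under 0.05 was met by 4943 genes between the undifferentiated and 6251 between the differentiating genotypes. For induction it was met by 9882 genes in WT and 11186 in KO MSCs. All 9 complement genes passed the minimum, *Cfd* only through its level in KO differentiating MSCs and *C3* only through its levels in differentiating MSCs. The fold changes on this scale understate the changes of genes near 0.1 RPKM.

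The 3 C1q genes were low in *Dnmt3l* KO MSCs in both states. *C1qa*, which encodes the A chain of C1q, was at 0.741 and 1.24 RPKM in WT undifferentiated libraries 1 and 2, at 2.12 and 2.85 in WT differentiating MSCs, at 0.0708 and 0.0688 in KO undifferentiated MSCs and at 0.294 and 0.253 in KO differentiating MSCs. *C1qb*, for the B chain, was at 0.640 and 0.363, then 1.84 and 2.65, 0.0241 and 0.0939, and 0.162 and 0.376 RPKM in the same order of libraries. *C1qc*, for the C chain, was at 0.957 and 0.939, then 2.47 and 2.86, 0.0731 and 0.142, and 0.140 and 0.403 RPKM. For each gene the KO libraries lay below the WT libraries of the same state without overlap, and the order of group means was WT differentiating, WT undifferentiated, KO differentiating and KO undifferentiated MSCs. The share of all genes whose groups of 2 libraries do not overlap was not counted. A lack of overlap, here and for the genes below, is therefore a description only. In *C1qb*, 1 KO differentiating library (0.376 RPKM) was above 1 WT undifferentiated library (0.363 RPKM), and in *C1qc*, 1 KO differentiating library (0.140 RPKM) was below 1 KO undifferentiated library (0.142 RPKM).

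**Figure D1:**
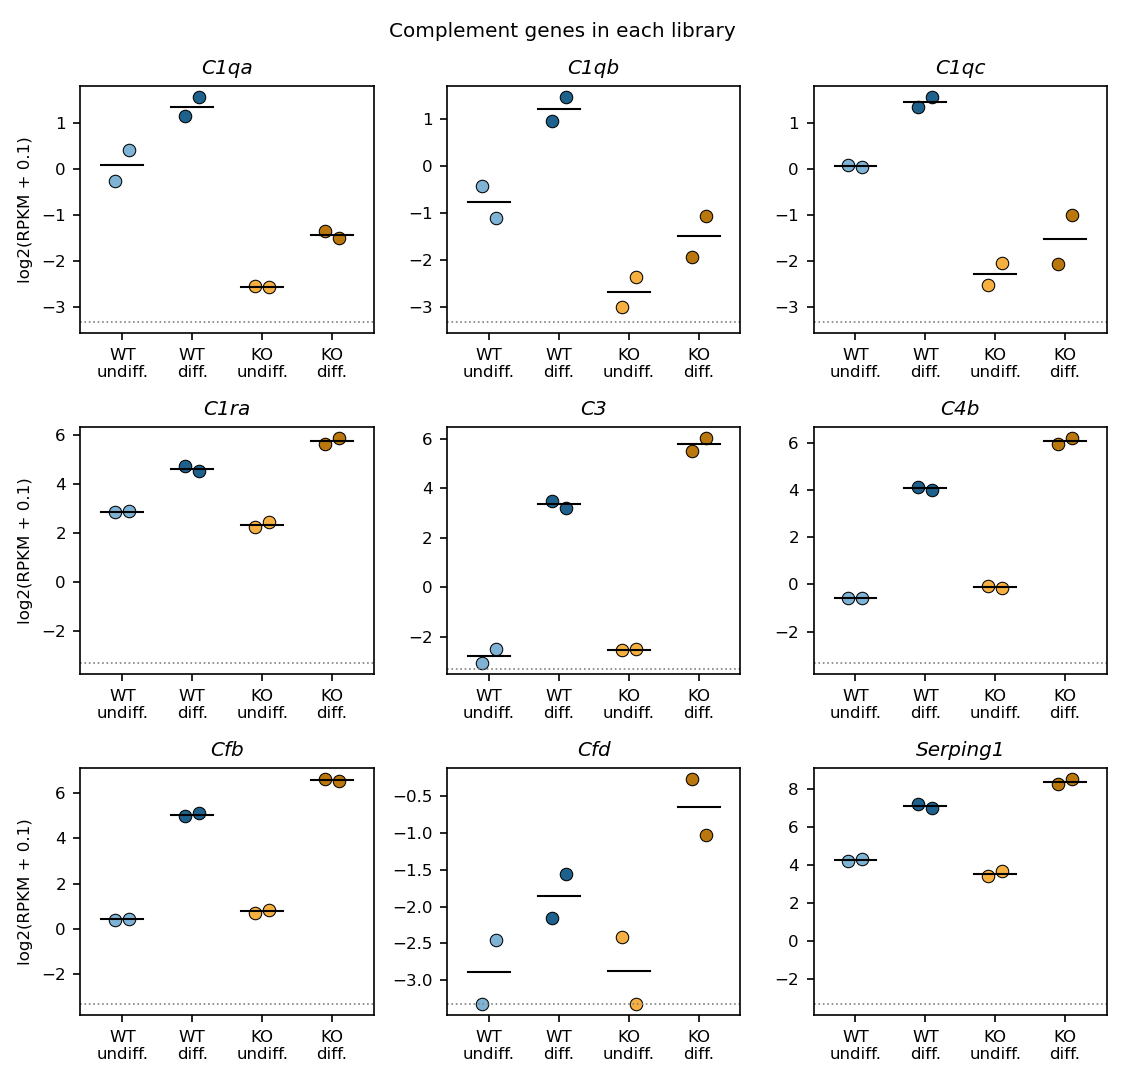
Levels of the 9 complement genes in each of the 8 libraries as log2(RPKM + 0.1), 1 panel per gene with its own vertical range. Points are libraries, black lines are means of the 2 libraries of a group, and the dotted line is a value of 0 RPKM; the C1q genes (top row) are lowest in KO undifferentiated MSCs, and the genes of the other rows are highest in KO differentiating MSCs.

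These low levels rested on few reads. For *C1qa*, *C1qb*, *C1qc* and *C3* the values under 50 reads in every library were whole multiples of 1 step, within 0.05 reads. In KO undifferentiated libraries 1 and 2 the reads were 3 and 3 for *C1qa*, 1 and 4 for *C1qb*, and 3 and 6 for *C1qc*. A level of 3 reads, the limit that a count of 0 allows, corresponded to between 0.0509 and 0.0731 RPKM for these genes, so that 4 of the 6 values in KO undifferentiated MSCs were at or under this limit. Over the 3 genes together, WT undifferentiated MSCs had 99 and 113 reads, WT differentiating MSCs 372 and 371, KO undifferentiated MSCs 7 and 13, and KO differentiating MSCs 26 and 44. The reads of WT undifferentiated MSCs, scaled to depth, were 10.3 times those of KO undifferentiated MSCs (exact 95% interval 6.52 to 17.2), and those of WT differentiating MSCs 8.94 times those of KO differentiating MSCs (6.99 to 11.6). Such intervals cover counting error only.

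In undifferentiated MSCs the read ratio of WT over KO was 14.3 for *C1qa* (6.31 to 40.0), 8.38 for *C1qb* (3.32 to 27.1) and 8.77 for *C1qc* (4.40 to 19.9). All 3 were DEGs, lower in KO MSCs, by limma. The log2 change was -2.65 for *C1qa* (SE 0.25, adjusted p = 0.0014), -1.92 for *C1qb* (SE 0.41, adjusted p = 0.017) and -2.36 for *C1qc* (SE 0.35, adjusted p = 0.0058). Of all genes tested, 1.09% were called lower and 0.613% higher in this comparison. The call of *C1qb* was lost without library 1 of either group: without WT undifferentiated library 1 its log2 change was -1.58 (adjusted p = 0.087) and without KO undifferentiated library 1 it was -1.59 (adjusted p = 0.096). With a pseudocount of 1 in place of 0.1, the log2 changes of the 3 genes were -0.89, -0.50 and -0.82 and none reached 2-fold. In bulk RNA, fewer C1q-expressing cells and less C1q RNA per cell cannot be told apart.

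In differentiating MSCs *C1qa*, *C1qb* and *C1qc* were again DEGs. Their log2 changes in KO against WT MSCs were -2.78 (SE 0.25, adjusted p = 0.0012), -2.71 (SE 0.41, adjusted p = 0.0044) and -2.99 (SE 0.35, adjusted p = 0.0023). Mean levels were 9.10, 8.34 and 9.80 times higher in WT MSCs. In this comparison 1.95% of all genes were called lower and 1.36% higher. The 3 calls held in each of the 18 alternative settings tried.

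With induction the C1q genes rose in WT MSCs, where the log2 changes from undifferentiated to differentiating were 1.27 for *C1qa* (SE 0.25, adjusted p = 0.0050), 1.98 for *C1qb* (SE 0.41, adjusted p = 0.0061) and 1.39 for *C1qc* (SE 0.35, adjusted p = 0.014). Of all genes, 9.69% were called higher and 4.63% lower in WT MSCs, so that higher calls were 67.7% of the calls, against 56.4% after quantile normalization. Centring each library on its median moved the median of all genes in this comparison by -0.10. The call of *C1qc* was lost when any 1 of the 4 WT libraries was left out (adjusted p between 0.052 and 0.075), and *C1qa* fell below 2-fold without WT undifferentiated library 1 (log2 change 0.93). With a pseudocount of 1, *C1qa* (0.81) and *C1qc* (0.91) lost the call in WT MSCs. In KO MSCs, *C1qa* rose by 1.13 (SE 0.25, adjusted p = 0.0065) and *C1qb* by 1.19 (SE 0.41, adjusted p = 0.038), and *C1qc* did not pass (0.76, SE 0.35, adjusted p = 0.097), where 13% of all genes were called higher and 9.87% lower. The calls of *C1qa* and *C1qb* in KO MSCs were lost after quantile normalization (0.75 and 0.80) and with a pseudocount of 1 (0.25 and 0.26). The call of *C1qb* was lost without KO undifferentiated library 1 (0.86, adjusted p = 0.18), KO differentiating library 2 (0.75, adjusted p = 0.19) or either WT differentiating library (adjusted p = 0.057 without each), and *C1qc* became a DEG without KO differentiating library 1 (1.30, adjusted p = 0.0058).

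The induction response of the C1q genes was not shown to differ between genotypes. The interaction of genotype and induction, the log2 change with induction in KO MSCs minus that in WT MSCs, was -0.14 for *C1qa* (95% interval -0.997 to 0.727), -0.79 for *C1qb* (-2.20 to 0.62) and -0.63 for *C1qc* (-1.86 to 0.60). The adjusted p was 0.79, 0.32 and 0.36. Across all genes, 2.76% had a higher and 3.42% a lower interaction call. Without KO differentiating library 2 the interaction of *C1qc* was -1.17 (adjusted p = 0.039), so the intervals are wide and 1 library moved the call.

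Markers of macrophages moved with the C1q genes in part. Of 22 macrophage markers, 17 were tested, and the summed level of the 22 was at most 26.0 RPKM in WT undifferentiated, between 40.7 and 47.5 in WT differentiating, 12.8 and 13.5 in KO undifferentiated and 16.7 and 18.3 in KO differentiating MSCs. *Lyz2* alone made up between 24.8% and 56.4% of this sum. Without *Lyz2* the sum was 12.1 and 12.6 RPKM in WT undifferentiated and 17.7 and 21.0 in WT differentiating MSCs. It was then 10.1 and 9.64 in KO undifferentiated and 9.85 and 10.6 in KO differentiating MSCs, so that much of the difference lay in this gene. In undifferentiated MSCs 7 of the 17 were DEGs lower in KO MSCs (*Adgre1*, *Ctss*, *Fcgr3*, *Laptm5*, *Lyz2*, *Ms4a7* and *Tyrobp*) and 0 were higher, with a median log2 change of -0.71, and at an unadjusted p under 0.05 alone 10 were lower and 3 higher. In differentiating MSCs 9 were lower (*Adgre1*, *Ctss*, *Fcer1g*, *Fcgr3*, *Itgam*, *Laptm5*, *Lyz2*, *Mrc1* and *Tyrobp*) and 0 higher, with a median of -1.67, and at an unadjusted p under 0.05 alone 12 were lower and 1 higher. *Adgre1*, *Itgam*, *Laptm5* and *Ms4a7* passed the minimum of 0.1 RPKM only through WT differentiating MSCs, so that their lower level in KO differentiating MSCs had to follow in part from the minimum. Of all tested genes, 1.09% were DEGs lower and 0.613% higher in undifferentiated MSCs, and 1.95% lower and 1.36% higher in differentiating MSCs. The share of all genes at an unadjusted p alone was not counted. The median over all tested genes was between -0.01 and 0.00 in both comparisons. With induction 4 of the 17 markers rose and 0 fell in WT MSCs, where 9.69% of all genes were called higher and 4.63% lower. In KO MSCs 2 rose (*Lyz2* and *Mpeg1*) and 3 fell (*Cd53*, *Csf1r* and *Fcer1g*), against 13% and 9.87% of all genes. The interaction was called lower for *Csf1r*, *Mrc1* and *Tyrobp* and higher for 0, against 3.42% and 2.76% of all genes.

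*Lyz2*, which encodes lysozyme and was the highest marker, was at 12.8 and 13.4 RPKM in WT undifferentiated, 22.9 and 26.5 in WT differentiating, 3.43 and 3.19 in KO undifferentiated and 6.81 and 7.66 in KO differentiating MSCs. *Ctss*, for the lysosomal protease cathepsin S, was at 0.688 and 0.827, then 2.14 and 2.69, 0.0538 and 0.140, and 0.206 and 0.297 RPKM in the same order. The KO libraries of both genes were below the WT libraries of the same state, and their log2 changes in KO MSCs were -1.96 and -2.15 when undifferentiated (limma adjusted p = 1.9e-04 and 0.0029) and -1.76 and -2.84 when differentiating (adjusted p = 3.8e-04 and 0.0012). *Tyrobp*, the signalling adaptor of myeloid receptors, changed by -1.25 and -2.39 in the 2 states (adjusted p = 0.0072 and 9.8e-04), and *Mrc1*, the mannose receptor, changed by -2.03 in differentiating MSCs (adjusted p = 6.2e-04).

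*Csf1r*, *Cd14* and *Trem2* did not show this pattern in undifferentiated MSCs. *Csf1r*, the receptor of the macrophage growth factor, was at 1.53 and 1.43 RPKM in WT undifferentiated and 1.89 and 1.90 in KO undifferentiated MSCs, where the KO libraries were the higher, and at 0.710 and 0.698 against 0.405 and 0.352 in differentiating MSCs. *Cd14*, a coreceptor for bacterial lipopolysaccharide, was at 1.23 and 1.47 RPKM in WT and 2.59 and 2.18 in KO undifferentiated MSCs. After induction *Cd14* was again higher in KO MSCs, at 4.67 and 4.90 RPKM against 3.48 and 3.43 in WT MSCs (log2 change 0.46, limma adjusted p = 0.020). *Trem2* was between 0.782 and 1.33 RPKM in all libraries. *Ptprc* and *Itgam*, which encode the depleted antigens CD45 and CD11b, were at most 0.127 and 0.356 RPKM in any library, with lower means in KO than in WT MSCs in both states. *Aif1* and *Cybb* were at 0 in both KO undifferentiated libraries, and *Fcgr1* and *Spi1* (which encodes PU.1) in both KO differentiating libraries. The part of macrophages in the C1q levels was not tested.

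**Figure D2:**
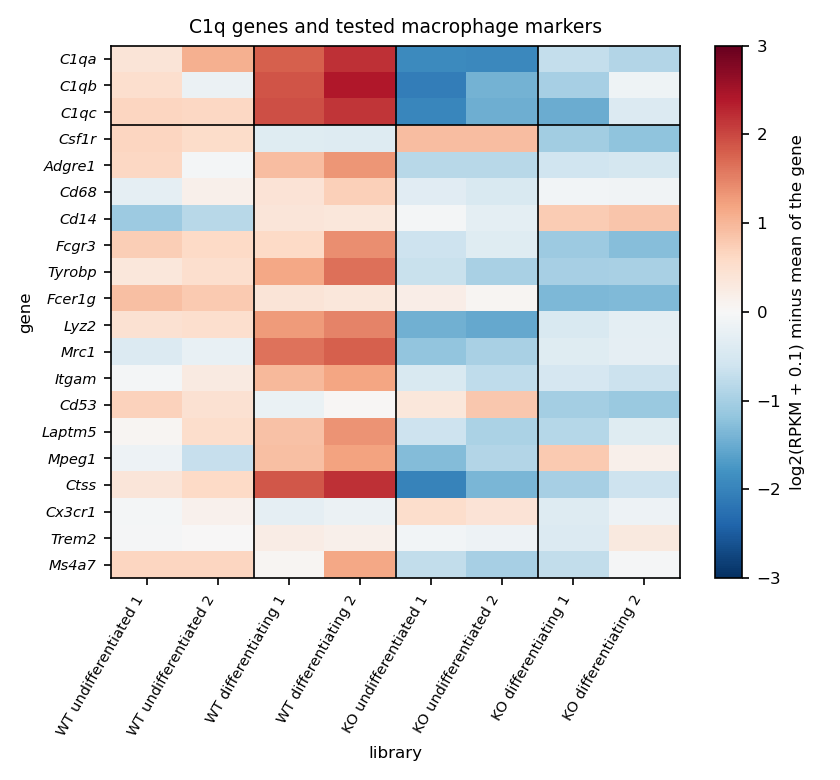
The 3 C1q genes (top) and the 17 tested macrophage markers (rows) in the 8 libraries (columns), as log2(RPKM + 0.1) minus the mean of the gene. Red is above and blue below that mean; *Ctss* and *Lyz2* share the order of the C1q genes, whereas *Csf1r*, *Cd14*, *Cd53* and *Cx3cr1* do not.

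Over the 8 libraries, the genes whose log2 level was most like the mean log2 level of the C1q genes, by Pearson correlation among the 13194 genes averaging 0.5 RPKM or more, were *Ctss* (r = 0.997), *Lyz1* (r = 0.987) and *Lyz2* (r = 0.984). *Lyz1* and *Lyz2* are near-identical copies whose reads may be split between them. The next were *Des*, *Tgoln2*, *Utrn*, *Vps8*, *Prrg4*, *Abca3* and *Slc52a3*, with r between 0.956 and 0.981. These coefficients describe 8 libraries that fall into 4 groups and largely follow the group means. *Tgoln2* and *Utrn* moved far less than the C1q genes, with group means between 25.6 and 32.0 RPKM. *Tyrobp* ranked 26 and *Mrc1* 34. With a pseudocount of 1, 4 of the 10 genes stayed among the 10 most alike.

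Of the stromal complement genes, 5 of the 6 rose with induction in WT MSCs and more so in KO MSCs, and *Serping1* was the most abundant in every library. *Serping1*, for the C1 inhibitor, was at 18.8 and 19.7 RPKM in WT undifferentiated, 148 and 131 in WT differentiating, 10.8 and 12.6 in KO undifferentiated and 308 and 372 in KO differentiating MSCs. It made up between 54.4% and 67.9% of the summed RPKM of the 6 genes. *C1ra*, for the protease C1r that this inhibitor blocks, was at 7.11 and 7.41, then 26.5 and 22.9, 4.60 and 5.41, and 50.7 and 59.1 RPKM in the same order. Both genes were lower in KO than in WT MSCs before induction and higher after it, with no overlap between any 2 groups.

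*C4b*, for the complement component C4 that the C1 complex cuts, was at 0.572 and 0.582 RPKM in WT undifferentiated, 17.7 and 16.1 in WT differentiating, 0.850 and 0.815 in KO undifferentiated and 62.6 and 73.6 in KO differentiating MSCs. *C3*, for the central component, was at 0.0206 and 0.0789, then 11.3 and 9.21, 0.0714 and 0.0775, and 46.1 and 65.1 RPKM. In undifferentiated MSCs these *C3* levels were 5 and 20 reads in WT and 17 and 19 in KO libraries, where 3 reads corresponded to at most 0.0126 RPKM. *C4b* did not overlap between any 2 groups, whereas the undifferentiated libraries of the 2 genotypes overlapped for *C3*.

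*Cfb*, for factor B of the alternative pathway, was at 1.21 and 1.26 RPKM in WT undifferentiated, 32.0 and 34.5 in WT differentiating, 1.52 and 1.70 in KO undifferentiated and 98.6 and 92.1 in KO differentiating MSCs, with no overlap between groups. *Cfd*, for factor D (adipsin), which cuts factor B, is known as a product of fat cells. It was listed at 0 and 0.0819 RPKM in WT undifferentiated, at 0.125 and 0.241 in WT differentiating, at 0.0870 and 0 in KO undifferentiated and at 0.729 and 0.391 in KO differentiating MSCs. It was the lowest of the 6 genes after induction, and its undifferentiated libraries overlapped between the genotypes.

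Before induction, 0 of the 6 stromal genes were DEGs between the genotypes by limma, although 4 had an unadjusted and an adjusted p under 0.05 with less than a 2-fold change. *Serping1* changed by -0.72 on the log2 scale in KO MSCs (SE 0.12, adjusted p = 0.0074) and *C1ra* by -0.53 (SE 0.11, adjusted p = 0.018). *C4b* changed by 0.46 (SE 0.09, adjusted p = 0.012) and *Cfb* by 0.35 (SE 0.07, adjusted p = 0.014). *C3* (0.25, 95% interval -0.34 to 0.84) and *Cfd* (0.02, -1.15 to 1.19) had intervals that spanned 0.

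After induction, *C4b*, *C3*, *Cfb*, *Serping1* and *C1ra* were DEGs higher in KO MSCs. *C3* was higher by 2.42 on the log2 scale (SE 0.24, adjusted p = 0.0014) and *C4b* by 2.00 (SE 0.09, adjusted p = 2.7e-04). *Cfb* was higher by 1.52 (SE 0.07, adjusted p = 3.0e-04), *Serping1* by 1.28 (SE 0.12, adjusted p = 0.0012) and *C1ra* by 1.15 (SE 0.11, adjusted p = 0.0014). As ratios of mean RPKM these were 5.43, 4.03, 2.87, 2.44 and 2.22 times the WT level. The 5 calls held in each of the 18 alternative settings. *Cfd* did not pass the adjusted test (1.21, SE 0.48, adjusted p = 0.093). Both its KO libraries were above both WT libraries, but it passed the minimum only through KO differentiating MSCs, which in part set that order.

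**Figure D3:**
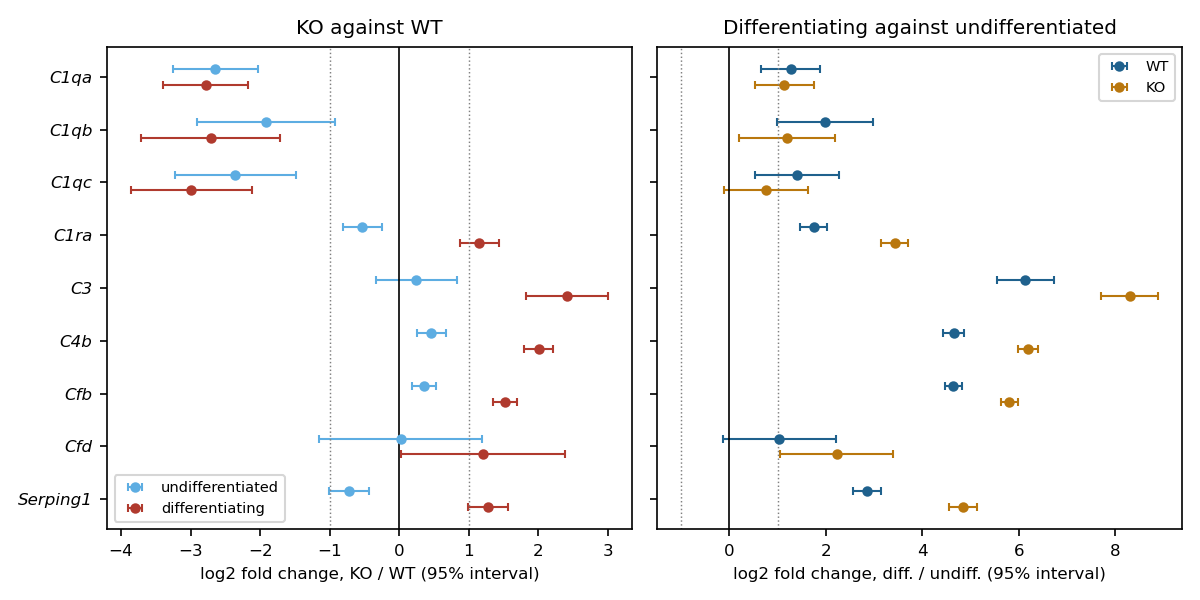
Log2 fold changes with 95% intervals from limma for the 9 complement genes, KO against WT in each state (left) and differentiating against undifferentiated in each genotype (right). Solid lines mark 0 and dotted lines a 2-fold change; in differentiating MSCs the points of the 3 C1q genes lie below -1 and those of the other 6 genes above 1, with the widest interval of the 6 for *Cfd*.

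Induction raised the stromal genes in WT MSCs by 6.13 on the log2 scale for *C3* (SE 0.24, limma adjusted p = 6.5e-06), 4.65 for *C4b* (SE 0.09, adjusted p = 6.5e-07), 4.64 for *Cfb* (SE 0.07, adjusted p = 4.5e-07), 2.85 for *Serping1* (SE 0.12, adjusted p = 7.7e-06) and 1.75 for *C1ra* (SE 0.11, adjusted p = 4.8e-05). As ratios of mean RPKM, *C3* was 206 times, *C4b* 29.3 times, *Cfb* 26.9 times, *Serping1* 7.24 times and *C1ra* 3.41 times its undifferentiated level. The ratio of *C3* reads, pooled over the 2 libraries of a group, had an exact 95% interval of 139 to 318. It does not hold the spread between the WT undifferentiated libraries (5 and 20 reads): the ratio of mean RPKM was 130 without library 1 and 497 without library 2 of that group. In KO MSCs the log2 changes were 8.30, 6.19, 5.80, 4.85 and 3.43 in the same order of genes, with ratios of 747, 81.8, 59.2, 29.1 and 11.0. *Cfd* was a DEG in KO MSCs (2.22, SE 0.48, adjusted p = 0.0060) and did not pass in WT MSCs (1.04, SE 0.48, adjusted p = 0.10). Its KO call was lost with a pseudocount of 1 (0.57). Because *Cfd* passed the minimum only through KO differentiating MSCs, its rise in KO MSCs was in part set by the minimum.

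The difference between the genotypes in the response to induction was tested by the interaction. It was positive and called for *C3* at 2.17 (SE 0.34, adjusted p = 0.0050), *Serping1* at 2.00 (SE 0.17, adjusted p = 9.4e-04), *C1ra* at 1.68 (SE 0.16, adjusted p = 0.0013), *C4b* at 1.54 (SE 0.12, adjusted p = 8.6e-04) and *Cfb* at 1.16 (SE 0.10, adjusted p = 0.0010). *Cfd* was at 1.19 (SE 0.68, adjusted p = 0.22). Of all tested genes, 2.76% had a higher and 3.42% a lower interaction call. The call of *C3* was lost with a pseudocount of 0.01 (1.73, adjusted p = 0.087). For *Serping1* and *C1ra* part of the interaction lay in their lower level in KO MSCs before induction.

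The C1q genes and the stromal genes moved apart in KO MSCs. The summed level of the 3 C1q genes was 2.34 and 2.54 RPKM in WT undifferentiated, 6.43 and 8.36 in WT differentiating, 0.168 and 0.305 in KO undifferentiated and 0.595 and 1.03 in KO differentiating MSCs. The summed level of the 6 stromal genes was 27.7 and 29.2, then 236 and 214, 17.9 and 20.6, and 567 and 662 RPKM. The stromal sum was 11.9 and 11.5 times the C1q sum in WT undifferentiated, 36.7 and 25.6 times in WT differentiating, 107 and 67.6 times in KO undifferentiated and 952 and 641 times in KO differentiating MSCs. The 4 groups did not overlap in this ratio, which is given as a description because the 2 sets were chosen.

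The other genes of the complement system gave the same comparison on a wider list, of 48 genes in the table, of which 29 were tested. Between undifferentiated MSCs of the 2 genotypes 0 were higher and 1 was lower in KO MSCs, *C2*, the partner of C4 in the classical pathway (at an unadjusted p under 0.05 alone, 4 were higher and 9 lower). *C2* was at 9.70 and 10.5 RPKM in WT and 4.70 and 4.62 in KO undifferentiated MSCs (log2 change -1.10, limma adjusted p = 1.9e-04). After induction it was at 26.4 and 26.2 in WT and 33.5 and 31.7 in KO MSCs. In differentiating MSCs 5 of the 29 were higher in KO MSCs (*C1s1*, *C7*, *Cfi*, *Clu* and *Csmd1*) and 3 were lower (*C3ar1*, *Itgam* and *Itgb2*), with a median log2 change of 0.31, where 1.36% of all genes were called higher and 1.95% lower. The lower genes were all receptors, the C3a receptor and the subunits of complement receptor CR3. Of these, *Itgam* passed the minimum only through WT differentiating MSCs.

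Among the initiators of the classical and lectin pathways, 1 of 9 tested was higher and 0 were lower in KO differentiating MSCs, and at an unadjusted p under 0.05 alone 6 were higher and 0 lower. This was *C1s1*, for the protease C1s, at 5.50 and 6.02 RPKM in WT undifferentiated, 32.3 and 27.4 in WT differentiating, 3.77 and 4.27 in KO undifferentiated and 73.3 and 89.2 in KO differentiating MSCs. Its groups did not overlap and stood in the same order as those of its neighbour *C1ra* (log2 change 1.44 in KO differentiating MSCs, adjusted p = 0.0011, interaction 1.95, adjusted p = 0.0011). *Colec12*, a scavenger receptor with a collectin domain, was the highest of this set, between 63.3 and 145 RPKM, and *Masp1*, a protease of the lectin pathway, was between 17.2 and 31.8 RPKM.

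Of the 3 tested terminal components, *C7* was a DEG between the genotypes after induction. It was listed at 0 in all 4 undifferentiated libraries, at 0.190 and 0.155 RPKM in WT differentiating and at 0.641 and 1.12 in KO differentiating MSCs (log2 change 1.81, adjusted p = 0.0041), and it passed the minimum only through this last group, so that a higher level there was in part set by the minimum. Of the 4 tested fluid-phase regulators, *Clu* and *Cfi* were higher in KO differentiating MSCs. *Clu*, for clusterin, which blocks the terminal complex, was at 0.393 and 0.267, then 12.8 and 10.7, 0.400 and 0.276, and 34.9 and 43.5 RPKM in the order of groups used above. It was 1.73 higher on the log2 scale in KO differentiating MSCs (adjusted p = 0.0025). *Cfi*, for factor I, which degrades C3b and C4b, was at 0.327 and 0.177 in WT and 0.552 and 0.723 in KO differentiating MSCs (1.09, adjusted p = 0.017).

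Of the 6 tested membrane regulators, *Csmd1* was the only DEG between the genotypes, in differentiating MSCs (1.39, adjusted p = 0.0037), at a level of at most 0.819 RPKM. *Cr1l* (Crry), which limits C3 on mouse cells, was between 40.1 and 51.9 RPKM in all libraries, and *Cd59a*, which blocks the terminal complex, was between 14.0 and 24.8. *Cd55*, which breaks up C3 convertases, rose in both genotypes by 1.53 and 2.04. Of the 6 tested receptors, 0 were higher and 3 lower in KO differentiating MSCs, and at an unadjusted p under 0.05 alone 0 were higher and 5 lower. *C3ar1* was at 0.367 and 0.498 RPKM in WT and 0.165 and 0.158 in KO differentiating MSCs (-1.02, adjusted p = 0.010), *Itgam* changed by -1.67 (adjusted p = 0.0031) and *Itgb2* by -1.07 (adjusted p = 0.024). *Itgam*, also counted among the macrophage markers, passed the minimum only through WT differentiating MSCs, so that its lower KO level was in part set by the minimum. *C1qbp*, a mitochondrial protein known to bind C1q, was between 15.5 and 35.0 RPKM and fell by 1.08 on the log2 scale with induction in KO MSCs. Properdin, encoded by *Cfp*, the remaining gene of the alternative pathway, was between 0.620 and 1.13 RPKM and was called in 0 of the comparisons.

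With induction, 14 of the 29 other complement genes rose and 0 fell in WT MSCs, with a median log2 change of 0.98, and at an unadjusted p under 0.05 alone 20 were higher and 2 lower, where 9.69% of all tested genes were called higher and 4.63% lower. In KO MSCs 18 rose and 3 fell (*C1qbp*, *C5ar1* and *Cd93*), with a median of 1.53, against 13% and 9.87% of all genes. *Colec11* and *C7* passed the minimum only through KO differentiating MSCs. *C6*, *Cfi* and *Csmd1* passed it only through differentiating MSCs of the 2 genotypes. Their undifferentiated means were at most 0.0428 RPKM for *C6* and 0.0904 for *Cfi*, and 0.0433 in WT and 0.110 in KO MSCs for *Csmd1*. The rise of these genes with induction was in part set by the minimum. The interaction was positive and called for 8 (*C1rb*, *C1s1*, *C1s2*, *C2*, *C7*, *C8g*, *Cfi* and *Clu*) and negative for 2 (*C3ar1* and *C5ar1*), against 2.76% and 3.42% of all genes. The median of all tested genes was between -0.01 and 0.00 in these comparisons.

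**Figure D4:**
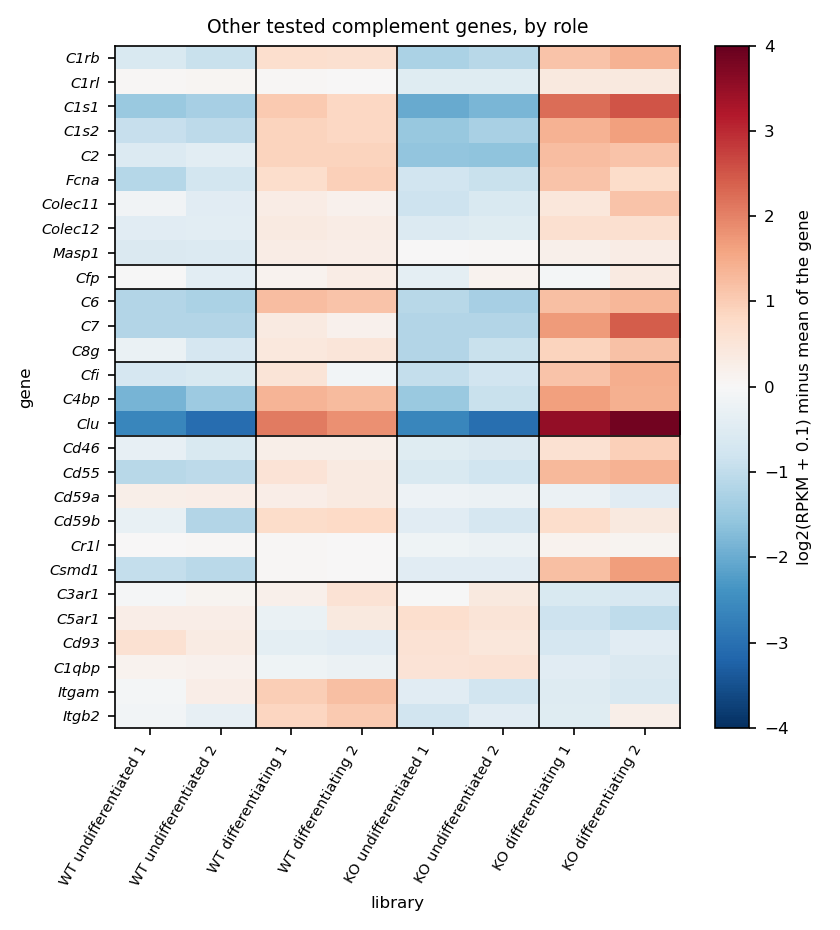
28 of the 29 other tested complement genes (rows, divided by role from top to bottom into initiators of the classical and lectin pathways, alternative pathway, terminal components, fluid-phase regulators, membrane regulators and receptors) in the 8 libraries (columns), as log2(RPKM + 0.1) minus the mean of the gene. Red is above and blue below that mean; *Clu* and *C1s1* are highest in KO differentiating MSCs, and of the receptors *C3ar1* and *C5ar1* are lowest there.

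Markers of fat cells also rose with induction. The summed level of 7 adipocyte markers was between 57.1 and 60.3 RPKM in WT undifferentiated, 421 and 423 in WT differentiating, 65.2 and 67.7 in KO undifferentiated and 443 and 468 in KO differentiating MSCs. All 7 rose in WT and 6 in KO MSCs (*Plin1* passed the minimum only through KO differentiating MSCs). *Adipoq* and *Cidec* had undifferentiated group means of at most 0.0581 and 0.0203 RPKM and passed the minimum only through differentiating MSCs. The rise of *Plin1*, *Adipoq* and *Cidec* was therefore in part set by the minimum. Of all tested genes, 9.69% were called higher with induction in WT and 13% in KO MSCs. *Lpl*, for lipoprotein lipase, was the only adipocyte marker that was a DEG between the genotypes after induction. It was at 10.8 and 10.3 RPKM in WT and 23.8 and 29.9 in KO MSCs, and 1.36% of all genes were called higher. *Fabp4*, the highest, was at 335 and 339 in WT and 357 and 324 in KO differentiating MSCs, where the groups overlapped. Of 7 osteoblast markers, *Ibsp*, for bone sialoprotein, was at 729 and 661 RPKM in WT and 386 and 313 in KO differentiating MSCs. It was a DEG lower in KO undifferentiated MSCs (log2 change -1.33, limma adjusted p = 7.3e-04). *Bglap*, for osteocalcin, was at most 0.708 RPKM and a DEG lower in KO MSCs in both states. No other osteoblast marker was a DEG between the genotypes, where 1.09% of all genes were called lower in undifferentiated and 1.95% in differentiating MSCs. None of the 10 stromal markers was a DEG between the genotypes. As only 1.7% of all genes were DEGs in undifferentiated and 3.3% in differentiating MSCs, a count of 0 in 10 is near that share. At an unadjusted p under 0.05 alone 8 differed in undifferentiated and 9 in differentiating MSCs. The share of all genes at that limit was not counted. The part of these cell types in the levels of the stromal complement genes was not tested.

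The genes most like the mean log2 level of *C1ra*, *C3*, *C4b*, *Cfb* and *Serping1* over the 8 libraries were *Osbpl1a*, *Pi16*, *Mfsd7a*, *Clec2d*, *Thra*, *Agtr2*, *Slc6a12*, *Agtrap*, *Cebpd* and *P2rx4*, each with r of at least 0.999. *Pi16*, for a secreted peptidase inhibitor known from fibroblasts, was at 0.149 and 0.172, then 7.22 and 6.04, 0.112 and 0.118, and 24.5 and 30.0 RPKM. *Cebpd*, for a transcription factor of the C/EBP family known from the acute-phase and glucocorticoid responses, was at 38.9 and 40.6, then 99.6 and 102, 41.2 and 41.2, and 145 and 146 RPKM. Both were highest in KO differentiating and next in WT differentiating MSCs, as the 5 stromal genes were, and *Cebpd* moved less, with log2 changes of 1.34 and 1.81 on induction. Among complement genes, *Clu* (r = 0.997) ranked 80 and *C1s1* (r = 0.993) ranked 280 of the 13194. With a pseudocount of 1, 3 of the 10 genes stayed among the 10 most alike.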

How the data were processed

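The authors deposited 1 table of RPKM values, with a row per gene and a column per library. After depletion of ribosomal RNA, stranded reads of 50 bases were aligned to mm10 by TopHat2 (2.1.0 per the submitters' processing notes, which also name Cufflinks 2.2.1) using gene models from iGenomes, and Cuffdiff gave the level of each gene. Replicates were not pooled, and 0 columns lacked a sample. The labels name no batch.

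From these values, log2(RPKM + 0.1) was fitted with limma 3.58.1 in R 4.3.3 (a mean per group, 8 libraries, a trend in the prior variance) over genes averaging 0.1 RPKM or more, with Benjamini-Hochberg adjustment over all 15342. The script was tested on simulated data. Whole reads behind the low values were found from their steps (tolerance 0.05 reads). The genes, lists and tests were chosen with earlier results of these data known. Named are the 9 genes, listed genes called between genotypes or among the 3 most abundant of a list, and the 10 genes most like each profile; other markers (such as *Csf1r* and *Trem2*) were added after their values were seen. Positions come from GENCODE M21 and promoters from RefSeq (GRCm38.p6). Some listed genes are not reported here. The 18 alternatives changed the pseudocount, minimum, scaling, fit, fold limit or block, or left out a library.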

Additional observations from a re-analysis of the deposited data

Results flagged for a closer look

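The response to induction differed between the genotypes, by the interaction term of limma, for 5 of the 9 complement genes, and these are the results that stood out. The log2 change with induction was larger in *Dnmt3l* KO than in WT MSCs by 1.68 for *C1ra*, 2.17 for *C3*, 1.54 for *C4b*, 1.16 for *Cfb* and 2.00 for *Serping1*. Of all tested genes, 2.76% had a higher and 3.42% a lower interaction call. Both KO differentiating libraries were above both WT differentiating libraries for each of the 5 genes. The share of all genes with such an order was not counted. Groups of 2 libraries were too small to look for a library that stood apart.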

How the results depend on the processing

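Over the values of the 9 genes in 5 comparisons under the alternative settings, 716 of 751 kept their direction and their side of the threshold, 25 lost the call, 2 gained one and 8 changed sign. The number of the 9 genes called in undifferentiated MSCs went from 3 to 0 with a pseudocount of 1 and to 7 with no fold limit, while the calls over all genes went from 261 to 99 and 4943. In KO MSCs the number raised by induction went from 8 to 5 with a pseudocount of 1. When 1 library was left out, between 2 and 3 of the 9 were called in undifferentiated and 8 in differentiating MSCs between genotypes, between 6 and 8 on induction in WT, between 7 and 9 in KO, and between 5 and 6 in the interaction. The signs that changed were of values near 0. The interaction of *C1qa*, -0.14, became 0.475 with a pseudocount of 0.01, and leaving out a library gave between -0.472 and 0.202 (0.202 without WT undifferentiated library 1 and 0.0710 without WT differentiating library 2). The change of *Cfd* between undifferentiated genotypes, 0.02, became -0.0120 after quantile normalization and -0.00279 after median centring, and was -0.412 without WT undifferentiated library 1 and -0.432 without KO undifferentiated library 1 (between -0.432 and 0.471 with 1 library left out). That of *C3*, 0.25, was -0.0366 without WT undifferentiated library 1 (between -0.0366 and 0.532). Over all tested genes, libraries with the same number did not deviate together (r between -0.09 and 0.03). A pairing that moved few genes would not show in these values. With the replicate number as a block the number of the 9 genes called stayed 3, 8, 8, 8 and 5 in the 5 comparisons. The values of *C1qa*, *C1qb* and *C1qc* in KO undifferentiated MSCs rest on 1 to 6 reads a library, which limits any fold change drawn from them.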

Other observations

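Of 20 genes of the acute phase and its regulators, 17 were tested. By limma, 4 were higher in *Dnmt3l* KO than in WT differentiating MSCs, *Lcn2*, *Orm1*, *Orm2* and *Saa3*, all known as acute-phase products, and 0 were lower (at an unadjusted p under 0.05 alone, 15 were higher and 0 lower). Of all tested genes, 1.36% were called higher and 1.95% lower in this comparison. *Lcn2*, for lipocalin 2, was at 9.17 and 7.69 RPKM in WT and 25.9 and 29.5 in KO differentiating MSCs (log2 change 1.70, adjusted p = 0.0013), and was at most 0.0319 in undifferentiated MSCs. *Hp*, for haptoglobin, the highest, was at 7.91 and 8.84 RPKM in WT undifferentiated, 483 and 440 in WT differentiating, 6.90 and 8.15 in KO undifferentiated and 862 and 955 in KO differentiating MSCs. Its difference between the genotypes after induction was 0.98, just under 2-fold, and its interaction was called at 1.13 (adjusted p = 0.0028). *Il6*, for an inducer of the acute phase, fell on induction in both genotypes, from between 16.2 and 19.4 to between 0.754 and 1.37 RPKM.

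Of 12 genes named for C1q-like domains, 8 were tested. *C1qtnf3*, for a secreted C1q/TNF-related protein, was at 10.2 and 11.7 RPKM in WT and 4.13 and 4.20 in KO undifferentiated MSCs (log2 change -1.37, adjusted p = 3.5e-04), and 0 of the 8 were called between the genotypes after induction (4 were lower and 0 higher at an unadjusted p under 0.05 alone). *C1qtnf5*, the highest, was between 34.8 and 64.1 RPKM.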
